A study of Mus musculus with 12 samples.

Results

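Oligodendrocyte precursor genes were followed through 12 RNA-seq libraries of adult mouse cortex. The set named 8 genes that mark these cells, and it was applied as rows of the count and RPKM tables carrying one of those symbols. Of the 8 genes 7 had a row (Pdgfra, Cspg4, Gpr17, Vcan, Olig1, Olig2 and Sox10), out of 41388 genes in the tables. All 7 passed the filter on low counts that left 17441 genes for testing. Lhfpl3 was not matched to a row and is not analysed here.

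The study altered exon 5 of Grin1, the gene for the obligatory GluN1 subunit of NMDA receptors, in mice of the C57Bl/6 background. The knock-in animals carry the exon constitutively (Grin1-exon5+/+, KI, 3 libraries), and the knockout animals lack it (Grin1-exon5-/-, KO, 3 libraries). Wild types were sequenced for each line as a group of their own (KI_WT and KO_WT, 3 libraries each). All animals were labelled adult, without an age or a sex, and each library came from the cortex of its own animal. The labels give no cell type restriction of the alteration. The comparisons ask whether always including or always lacking the exon goes with another level of precursor transcripts, and whether the lines differ in this.

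Oligodendrocyte precursors, also called NG2 glia, are the main dividing cells of the adult cortex outside the neurogenic niches. They receive glutamatergic synapses, carry NMDA receptors, and give rise to myelinating oligodendrocytes throughout life. Platelet-derived growth factor acting on PDGFRA keeps them dividing, the OLIG and SOX10 transcription factors set and hold the lineage, and GPR17 marks the cells that have begun to differentiate. Sox10, Olig1 and Olig2 stay on in mature oligodendrocytes. Pdgfra is also made by fibroblasts of meninges and vessels, and Cspg4 by pericytes, so that bulk levels of these genes can hold more than precursors. In bulk tissue fewer cells of a type and less RNA per cell cannot be told apart.

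Loci are given on GRCm38. Pdgfra is on chromosome 5 (75152292 to 75198215, plus strand), Cspg4 on chromosome 9 (56865033 to 56899870, plus strand), Vcan on chromosome 13 (89655312 to 89742509, minus strand) and Sox10 on chromosome 15 (79154908 to 79165240, minus strand). Olig2 (91225457 to 91228677) and Olig1 (91269772 to 91271933) lie on the plus strand of chromosome 16, 41.1 kb apart, with 1 annotated gene (Gm37016) between them. Olig1 is a single-exon gene, whereas Pdgfra has 23 exons in its longest coding transcript and Vcan 15. Annotated exons of genes on the other strand cover 7.26% of the exonic bases of Olig1 (the noncoding Gm15966), 4.55% of those of Pdgfra (the antisense Gm42802) and 3.62% of those of Gpr17 (Lims2). Whether the counting used strand was not given in the sources used here, so reads of these stretches cannot be assigned to one gene.

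RefSeq promoter entries of GRCm38 were used for 4 of the 7 genes (Pdgfra, Cspg4, Vcan and Olig2). Pdgfra, Cspg4 and Olig2 had a higher mean in KI than in KI_WT and Vcan a lower one. Of these genes the windows of Pdgfra, Cspg4 and Vcan are shown. They are chr5:75152001-75152250 on the plus strand, chr9:56864854-56865032 on the plus strand and chr13:89742513-89742762 on the minus strand, written 5′ to 3′ and ending before the first annotated exonic base. Capitals mark matches to CANNTG, the E-box core of basic helix-loop-helix factors such as the OLIG proteins, or to ACAAT, a core of SOX factor sites, on either strand.
Pdgfra: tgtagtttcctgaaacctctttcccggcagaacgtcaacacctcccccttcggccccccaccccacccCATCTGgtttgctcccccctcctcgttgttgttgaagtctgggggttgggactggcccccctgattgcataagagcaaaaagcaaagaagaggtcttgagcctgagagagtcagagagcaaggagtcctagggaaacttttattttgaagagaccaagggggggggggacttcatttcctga
Cspg4: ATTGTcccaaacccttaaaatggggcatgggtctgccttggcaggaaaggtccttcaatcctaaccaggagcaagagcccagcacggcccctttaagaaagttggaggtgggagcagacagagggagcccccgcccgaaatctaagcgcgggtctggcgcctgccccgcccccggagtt
Vcan: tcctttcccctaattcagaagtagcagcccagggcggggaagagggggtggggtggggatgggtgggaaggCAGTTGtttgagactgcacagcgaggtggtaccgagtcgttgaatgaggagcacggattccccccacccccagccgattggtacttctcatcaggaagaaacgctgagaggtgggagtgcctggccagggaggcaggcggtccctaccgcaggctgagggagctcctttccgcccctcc
In the full window of 250 bases before and 50 after the start site, CANNTG occurred at 2 places for Pdgfra, at 1 for Vcan and at 0 for Cspg4 and Olig2. ACAAT occurred at 1 place each for Cspg4 and Olig2 and at 0 for Pdgfra and Vcan. No match of one motif overlapped one of the other. Of 27025 RefSeq promoters of the same length 72.1% hold CANNTG and 31.6% hold ACAAT, so these matches are common and describe the letters alone.

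Library totals were 31790970 to 36514024 gene-assigned counts, and the 7 genes had 295 (Cspg4 in KI_WT 3) to 4327 (Olig1 in KI 1) counts per library. Neuronal markers of cortex such as Slc17a7, the vesicular glutamate transporter of cortical excitatory neurons, were present in all libraries (523 to 1081 CPM). Transcripts of regions next to cortex differed between libraries. Summed over 8 olfactory bulb and neuroblast markers the level was 468 CPM in KI_WT 3, 274 in KO_WT 3 and 206 in KO 1, and at most 146 in the other libraries. Summed over 8 choroid plexus markers it was 20.2 to 28.9 CPM in KI_WT 3, KO_WT 1 and KO_WT 3, and at least 559 in the rest. Y-linked transcripts were expressed in KI 1, KI_WT 2, KI_WT 3, KO 3 and all KO_WT libraries, and near 0 in the other 5.

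Compared per length, Olig1 was the most abundant of the genes. Its deposited level averaged 47.7 RPKM over the 12 libraries (36.6 to 57.2), above 93.8% of tested genes. Sox10 (11.7), Pdgfra (11.4), Gpr17 (11.2) and Olig2 (10.2 RPKM) were close to each other, and Vcan (2.06) and Cspg4 (1.41) were lower. From the lowest to the highest library the CPM differed 1.39-fold for Sox10, 1.56-fold for Olig1 and 1.64-fold to 1.89-fold for the other 5. The SD of log2 CPM within groups was 0.126 for Olig1, the steadiest gene, and 0.26 for Olig2, the most variable, against a median of 0.172 over all tested genes.

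Pdgfra encodes the receptor through which platelet-derived growth factor A drives precursor proliferation. It was at 88.8, 82.1 and 80.7 CPM (counts scaled to library size by TMM) in KI 1 to KI 3, and at 81.9, 74.8 and 58.2 in KI_WT 1 to KI_WT 3. It was at 66.3, 51.6 and 79.2 CPM in KO 1 to KO 3, and at 95.8, 84.2 and 81.3 in KO_WT 1 to KO_WT 3. All KO libraries were thus below all KO_WT libraries, while KI and KI_WT overlapped through KI_WT 1. The order of the group means was KO_WT, KI, KI_WT and KO, and neighbours in it overlapped.

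Cspg4 encodes the NG2 proteoglycan of the precursor surface. Its level was 15.6, 11.4 and 12.4 CPM in KI and 11.3, 11.03 and 8.81 in KI_WT, in the order of the replicates. It was 8.30, 10.4 and 10.8 CPM in KO and 12.001, 12.1 and 12.4 in KO_WT. The KI libraries lay above KI_WT by a margin as small as 11.4 to 11.3 CPM, and the KO libraries lay below KO_WT. Group means ran KI, KO_WT, KI_WT and KO, and only KO_WT and KI_WT, among neighbours, had libraries that did not overlap.

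Gpr17 encodes an orphan receptor of precursors that are committing to differentiate. Its level was 62.6, 58.1 and 66.7 CPM in KI and 58.5, 47.5 and 43.9 in KI_WT. In KO it was 50.5, 39.9 and 61.4 CPM, and in KO_WT 68.9, 70.4 and 69.0. The KO_WT libraries were the highest and the closest together (69.4 ± 0.822 CPM, SD, n = 3), above all libraries of the other groups. KI, KO and KI_WT followed in this order, and neighbours among them overlapped.

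Vcan encodes versican, a chondroitin sulphate proteoglycan that precursors secrete into the matrix. It stood at 25.7, 27.6 and 27.8 CPM in KI and at 35.0, 28.1 and 31.2 in KI_WT. For the knockout line these were 22.3, 25.4 and 31.2 CPM in KO and 33.0, 34.5 and 36.7 in KO_WT. Both mutant groups were below their own wild types without overlap, although KI 3 and KI_WT 2 were only 27.8 and 28.1 CPM. The means ran KO_WT, KI_WT, KI and KO.

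Olig1 encodes a basic helix-loop-helix factor required for maturation and remyelination. It was at 122, 116 and 110.4 CPM in KI and at 95.9, 92.3 and 78.3 in KI_WT. In KO it was at 88.7, 95.8 and 109.8 CPM and in KO_WT at 115, 112 and 102. The KI libraries were all above the KI_WT libraries, whereas KO 3 lay within the range of KO_WT. Means ran KI, KO_WT, KO and KI_WT, and neighbours overlapped.

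Olig2 encodes the factor that specifies the lineage. It measured 25.1, 24.0 and 28.2 CPM in KI, and 26.0, 23.3 and 16.01 in KI_WT. In KO it measured 19.6, 27.7 and 27.8 CPM and in KO_WT 28.4, 30.2 and 23.3. The lowest libraries were KI_WT 3 and KO 1, and all 4 groups overlapped. Sox10, an HMG-box factor of the whole lineage, was at 31.8, 31.3 and 31.0 CPM in KI and at 30.7, 32.002 and 26.9 in KI_WT. It was at 29.5, 33.8 and 31.3 CPM in KO and at 36.5, 37.4 and 27.7 in KO_WT, so that no group stood apart.

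**Figure D1:**
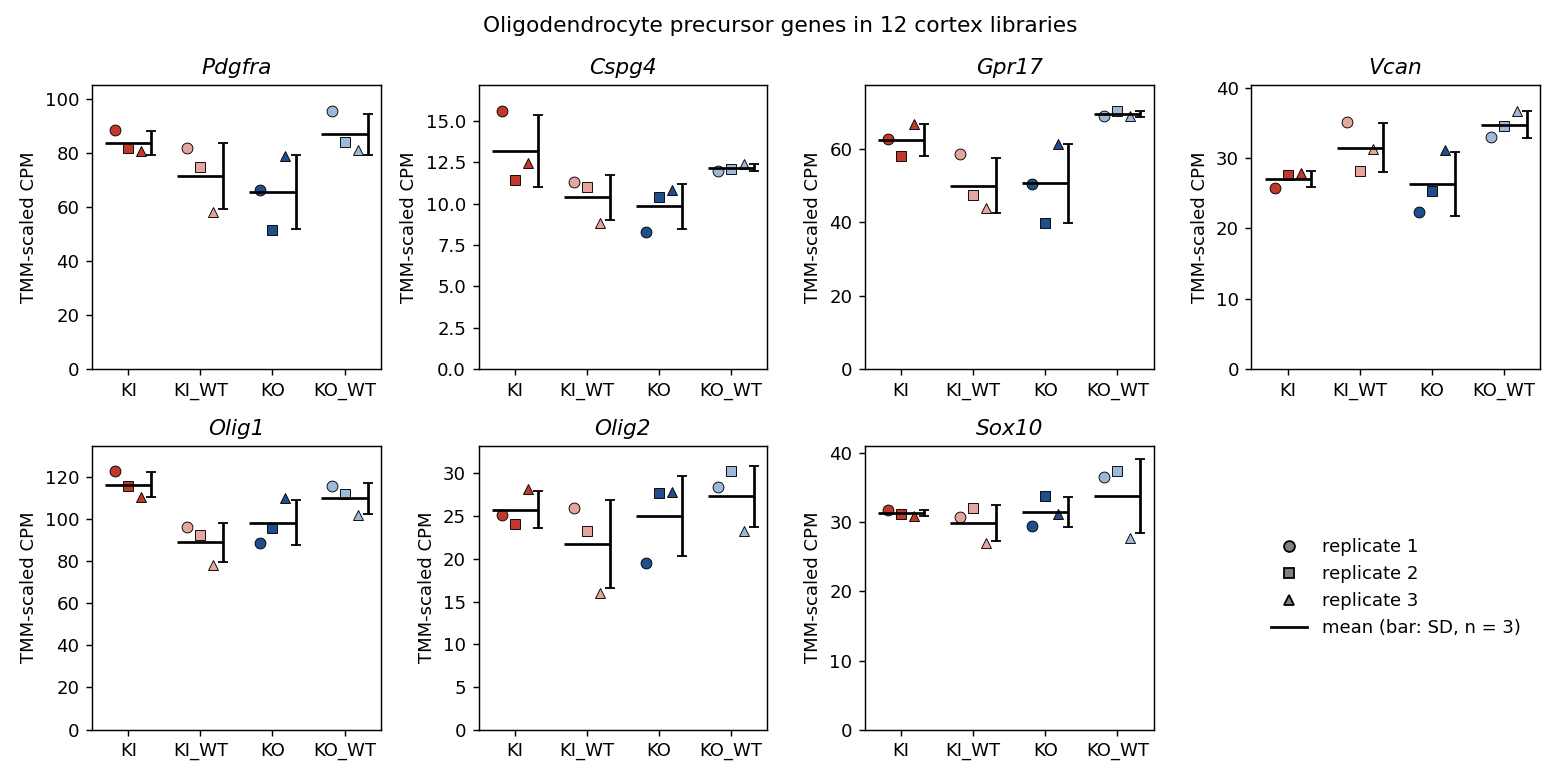
Level of each of the 7 genes in TMM-scaled CPM (vertical axis, from 0) in the 4 groups, with 1 point per library, its marker giving the replicate, a line at the group mean and a bar for the SD (n = 3). Olig1 and Cspg4 are higher in every KI library than in KI_WT, Pdgfra, Cspg4, Gpr17 and Vcan are lower in every KO library than in KO_WT, and Sox10 overlaps between all groups.

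In the knock-in line 6 of the 7 genes had a higher mean in KI than in KI_WT, as did 48.7% of tested genes, and 0 passed the test. The largest difference was that of Olig1, 116 ± 6.04 against 88.8 ± 9.31 CPM (SD, n = 3), which gave 0.39 on the log2 scale (SE 0.098, 95% interval 0.18 to 0.60). Cspg4 was at 0.34 (SE 0.14), Gpr17 at 0.32 (SE 0.14), Olig2 at 0.24 (SE 0.18), Pdgfra at 0.23 (SE 0.15) and Sox10 at 0.07 (SE 0.11). Vcan was the exception with -0.22 (SE 0.12). The adjusted p (edgeR, quasi-likelihood, Benjamini-Hochberg over the tested genes) was 0.705 for Olig1 and Cspg4 and 0.708 to 0.919 for the others. In this comparison 0% of all tested genes passed.

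At an unadjusted p under 0.05, Olig1, Cspg4 and Gpr17 were higher, 3 of 7 genes against 3.04% of tested genes that were higher at that threshold. Libraries did not overlap for Olig1 and Cspg4 on the higher side, where 6.32% of tested genes were, and for Vcan on the lower side, where 5.87% were. The median log2 fold change of the 7 genes was 0.24, against -0.0054 over all tested genes. The median was 0.10 without KI_WT 3 and 0.39 without KI_WT 1. Without KI_WT 3 Pdgfra was at 0.10, Olig2 at 0.07 and Sox10 at 0.0052, whereas Olig1 was at 0.31, Gpr17 and Cspg4 at 0.24 and Vcan at -0.22. Without KI_WT 1 Olig2 was at 0.39 and Vcan at -0.13, and without KI 1 Cspg4 was at 0.21. KI_WT 3 is the library with the highest olfactory bulb sum and almost no choroid plexus signal; the part of this in the result was not tested.

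In the knockout line all 7 genes had a lower mean in KO than in KO_WT, as did 48% of tested genes. Again 0 passed the test, in which 0.00573% of tested genes did. Gpr17 averaged 50.6 ± 10.8 CPM in KO (SD, n = 3) against 69.4 ± 0.822 in its wild types, which gave -0.46 on the log2 scale (SE 0.14, 95% interval -0.76 to -0.15). Pdgfra was at -0.41 (SE 0.15), Vcan at -0.40 (SE 0.12) and Cspg4 at -0.31 (SE 0.14). The transcription factor genes were closer to 0, with Olig1 at -0.16 (SE 0.097), Olig2 at -0.13 (SE 0.18) and Sox10 at -0.10 (SE 0.11). The edgeR adjusted p was 0.678 for the 4 surface and matrix genes and 0.702 to 0.871 for the 3 factors.

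Libraries did not overlap for those 4 surface and matrix genes, against 6.4% of tested genes on the lower side. Nor did they overlap on that side for 4 of 10 mural, 3 of 10 astrocyte, 3 of 8 microglial and 3 of 8 endothelial markers. For mature oligodendrocyte and neuronal markers this held for 0. At an unadjusted p under 0.05, Gpr17, Vcan and Pdgfra were lower, against 3.79% of tested genes. The median log2 fold change of the 7 genes was -0.31, against 0.0076 over all tested genes. It was -0.20 without KO 1 and -0.37 without KO 3. Without KO 1 Cspg4 was at -0.20, Olig1 at -0.09, Olig2 at 0.024 and Sox10 at -0.06, and without KO 2 Pdgfra was at -0.26. Without KO 3 Olig1 was at -0.245 and Olig2 at -0.21. Without KO_WT 3 Olig2 and Sox10 were both at -0.22, and without KO_WT 2 at -0.04 and -0.02.

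Y-linked expression and the range of animal numbers were unevenly spread over the groups. Set against the 3 KO_WT libraries, the 1 KO library with Y-linked expression (KO 3) had a log2 ratio of 0.0025 for Olig1, 0.03 for Olig2, -0.14 for Pdgfra and -0.18 for Gpr17, with a median of -0.14 over the 7 genes. Among the lowest animal numbers (KO 1 against 2 KO_WT libraries) all 7 genes were lower, with a median log2 ratio of -0.45. Among the higher numbers (KO 2 and KO 3 against 1 KO_WT library) all 7 were lower as well, with a median of -0.18. In the knock-in line the median was 0.42 among libraries with Y-linked expression (KI 1 against KI_WT 2 and KI_WT 3). It was 0.02 among those without (KI 2 and KI 3 against KI_WT 1), where Olig1 was at 0.24 and Vcan at -0.34. These ratios have 1 library on a side and no test, and the part of sex or of animal number in the results was not tested by them.

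The direct test of whether the lines differ is the difference of the effects, KI over KI_WT minus KO over KO_WT. It was above 0 for all 7 genes and for 49% of tested genes, and 0 passed after adjustment, where 0.00573% of tested genes did. It was largest for Gpr17, at 0.78 on the log2 scale (SE 0.20, 95% interval 0.35 to 1.21), followed by Cspg4 at 0.65 (SE 0.20), Pdgfra at 0.64 (SE 0.21) and Olig1 at 0.55 (SE 0.14). These 4 had an unadjusted p under 0.05, against 2.05% of tested genes with a positive difference at that threshold. Their edgeR adjusted p was 0.918. Olig2 (0.37, SE 0.25), Vcan (0.18, SE 0.17) and Sox10 (0.17, SE 0.16) had intervals that span 0. The difference was also above 0 for 13 of 16 further precursor markers, 10 of 10 differentiating and 13 of 13 mature oligodendrocyte genes. So it was for 9 of 10 mural, 8 of 10 astrocyte, 7 of 8 microglial and 7 of 8 endothelial markers. Of 10 neuronal markers 3 were above 0. The mural and microglial lists had 3 markers each at an unadjusted p under 0.05 on the higher side. The sign was thus not particular to the 7 genes.

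Each wild-type group enters the difference, and the means of these groups were apart. All 7 genes had a lower mean in KI_WT than in KO_WT, as did 49.9% of tested genes, and 0 passed the test, which 0% of tested genes passed. Gpr17 was at -0.47 (SE 0.14), Olig2 at -0.33 (SE 0.18), Olig1 at -0.30 (SE 0.098), Pdgfra at -0.28 (SE 0.15), Cspg4 at -0.23 (SE 0.14), Sox10 at -0.18 (SE 0.11) and Vcan at -0.14 (SE 0.12), each with an edgeR adjusted p near 1 (0.9998). Libraries of KI_WT were below those of KO_WT without overlap for Gpr17, Olig1 and Cspg4, against 3.83% of tested genes. The median of the 7 was -0.28, and -0.15 without KI_WT 3. This comparison shares the KI_WT libraries with that of KI and the KO_WT libraries with that of KO, so the values are not independent.

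Set against each other directly, KI was above KO without overlap for Cspg4 (log2 difference 0.42, SE 0.14), Pdgfra (0.35, SE 0.15) and Olig1 (0.24, SE 0.097), against 4.23% of tested genes. Gpr17 was at 0.30 (SE 0.14), and Olig2 (0.04, SE 0.18), Vcan (0.04, SE 0.12) and Sox10 (-0.0070, SE 0.11) were near 0. By edgeR 0 of the 7 passed, where 0.00573% of tested genes did, with adjusted p of 0.879 to 0.997. The intervals of Olig2 (-0.35 to 0.43) and Sox10 (-0.25 to 0.23) leave room for modest differences either way.

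**Figure D2:**
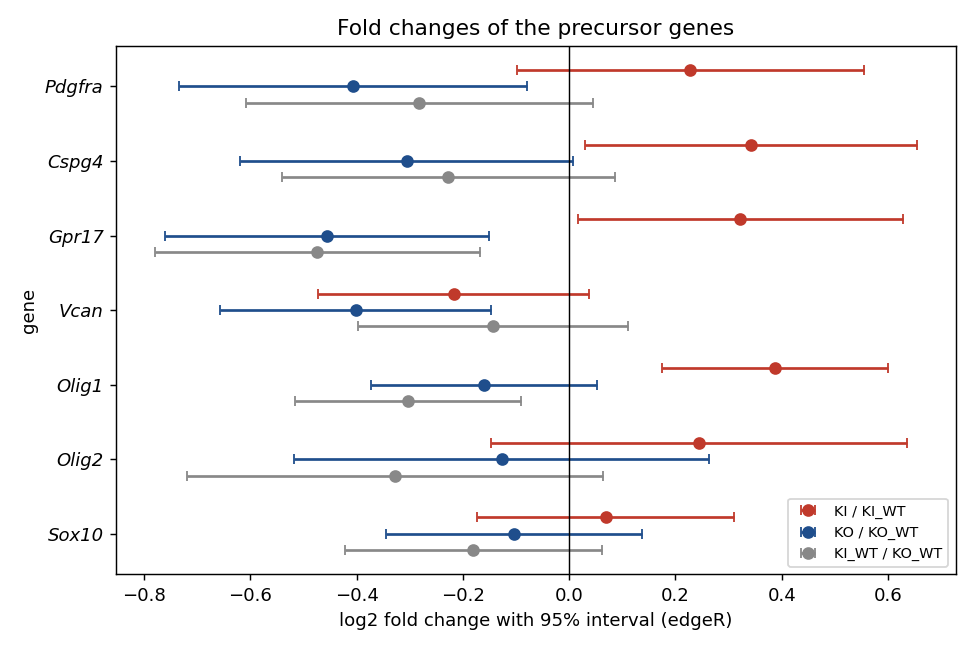
Log2 fold changes (horizontal axis) of the 7 genes with 95% intervals from edgeR, for KI over KI_WT (red), KO over KO_WT (blue) and KI_WT over KO_WT (grey). Red points are right of 0 for all genes but Vcan (-0.22), blue and grey points are left of 0, and Gpr17 lies at 0.32, -0.46 and -0.47.

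Other markers of precursors had medians nearer to 0. Of 16 further precursor markers 11 had a higher mean in KI, with a median of 0.06, and 12 a lower mean in KO, with a median of -0.12. In neither line did 1 of them pass. The smallest p in KI was that of Nkx2-2, a homeobox factor of the lineage (0.42, SE 0.18, edgeR adjusted p = 0.705), and in KO that of Ptprz1, a receptor phosphatase rich in precursors (-0.30, SE 0.10, edgeR adjusted p = 0.678). Cacng4 (0.36, SE 0.18) and Sox6 (-0.30, SE 0.14) came next in KI and KO. Libraries did not overlap for 0 of the 16 on the higher side in KI and for 4 on the lower side in KO, against the 6.32% and 6.4% given above. On the opposite sides they did not overlap for 1 in KI (Pcdh15, -0.36, SE 0.19) and for 0 in KO, against 5.87% and 5.95% of tested genes.

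Genes of differentiating oligodendrocytes were higher in mean in KI for 8 of 10 (median 0.07) and lower in KO for 8 of 10 (median -0.14), and 0 passed. In KI the smallest p values were those of Cnksr3 (0.50, SE 0.16) and Tcf7l2, a Wnt effector of newly formed oligodendrocytes (1.12, SE 0.48). In KO Tcf7l2 was at 1.05 (SE 0.48), on the other side of 0 from the median of its list. Thalamic neurons express Tcf7l2 as well. The 8 thalamus markers summed to 336 to 473 CPM in KI against 242 to 348 in KI_WT, and to 282 to 499 in KO against 225 to 377 in KO_WT. Taken singly, 6 of the 8 were higher in KI without overlap of libraries, against 6.32% of tested genes. In KO this held for 1 of the 8, against 5.95%. The part of thalamic transcripts in the Tcf7l2 values was not tested. In KO the smallest p values were those of Itpr2, a calcium release channel (-0.38, SE 0.13), and Enpp6, an early myelination enzyme (-0.60, SE 0.27).

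Of 13 mature myelin genes 7 had a higher mean in KI (median 0.13), while all 13 had a lower mean in KO (median -0.37), and 0 passed in either. Mag, a myelin adhesion molecule, was at 0.21 (SE 0.18) and Cldn11 at 0.26 (SE 0.24) in KI, and Mobp (-0.57, SE 0.26) and Mal (-0.53, SE 0.26) had the smallest p in KO. Relative to the mean of 12 libraries the mature genes were lowest in KO 2 (-0.656) and KI_WT 3 (-0.401), and the 7 precursor genes in KI_WT 3 (-0.324) and KO 1 (-0.264). KO 3 was above that mean for both (0.292 and 0.0635), as were KI 3, KI_WT 1, KO_WT 1 and KO_WT 2.

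**Figure D3:**
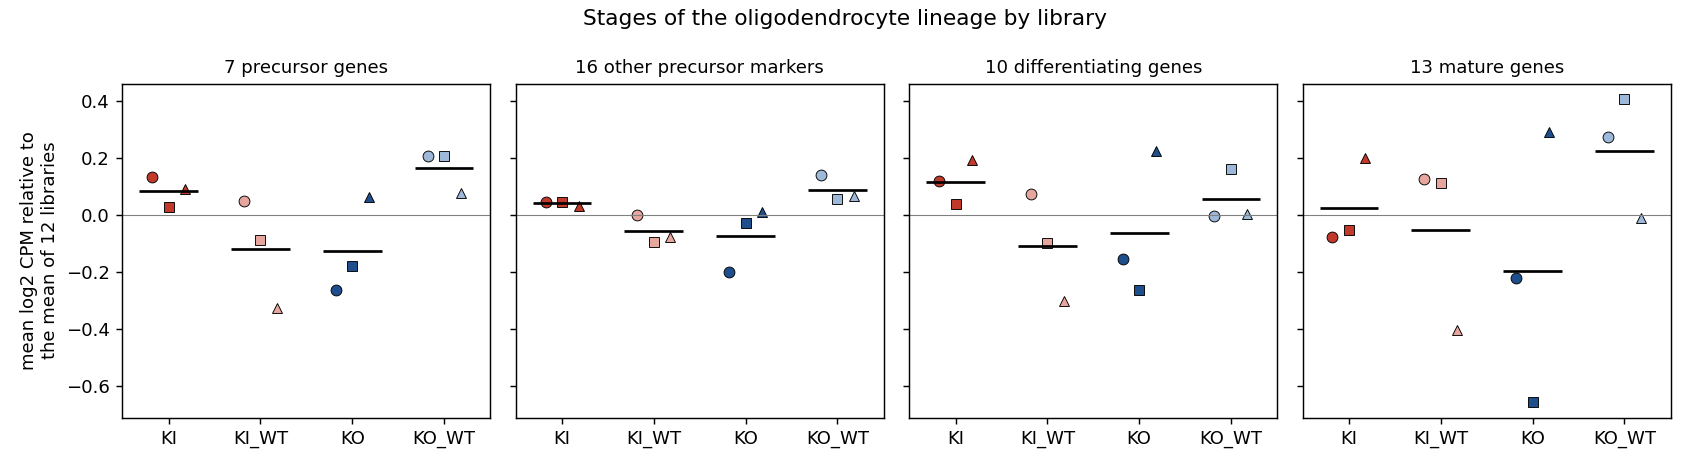
Mean log2 CPM of 4 gene lists relative to the mean of the 12 libraries (vertical axis), with 1 point per library, markers for replicates 1 (circle), 2 (square) and 3 (triangle), and a line at each group mean. The precursor genes span -0.324 to 0.206 and the mature genes -0.656 to 0.407, with KI_WT 3 low in both.

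Genes that act around PDGFRA showed no call. Of 12 ligand, receptor and signalling genes 5 had a higher mean in KI (median -0.02) and 7 a lower mean in KO (median -0.08). Pik3ca (-0.12, SE 0.087) and Pik3r1 (-0.18, SE 0.14), subunits of the kinase below the receptor, had the smallest p in KI. In KO these were Pdgfrb, the receptor of mural cells (-0.39, SE 0.13), and Ptpn11, a phosphatase that transmits the signal (-0.25, SE 0.096), both with an edgeR adjusted p of 0.678. Among 14 other genes of the chondroitin sulphate matrix, in which versican takes part, 7 were lower in mean in KI and 9 in KO. Hapln1, a link protein of that matrix, had the smallest p in both (-0.37, SE 0.14 in KI, and -0.33, SE 0.14 in KO), and Acan (-0.53, SE 0.29) and Chst11 (-0.24, SE 0.12) came next in KI and KO.

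Of 10 genes that hold differentiation back or mark that state, 6 had a higher mean in KI and 7 a lower one in KO, with medians of 0.0100 and -0.08, and 0 passed. Apcdd1, an inhibitor of Wnt signalling (-0.26, SE 0.10), and Id2, an inhibitor of basic helix-loop-helix factors (-0.16, SE 0.073), led in KI, and Hes1 (0.27, SE 0.13) and Gpr37 (-0.23, SE 0.16) in KO. Proliferation genes had medians of -0.0067 in KI and -0.09 in KO over 10 genes, with 0 passing. In KO the libraries of 4 of the 10 (Mki67, Top2a, Ccnb1 and Ccnd1) were below those of KO_WT without overlap, against 6.4% of tested genes, and 2 of these (Mki67 and Ccnd1) had an unadjusted p under 0.05, against 3.79%. Mki67, present in dividing cells, was at -0.99 (SE 0.29, edgeR adjusted p = 0.678) in KO, and Ccnd1, a G1 cyclin, was at 0.20 (SE 0.077) in KI and -0.17 (SE 0.077) in KO. Top2a was at -0.65 (SE 0.32) and Ccnb1 at -0.59 (SE 0.33) in KO, and Pcna at -0.12 (SE 0.098) in KI. In KO 7 of the 10 had a lower mean, as did 48% of tested genes, and 3 a higher one. These 3 were Birc5 (0.20, SE 0.35), Pcna (0.13, SE 0.098) and Mcm2 (0.09, SE 0.16).

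Markers of other cells that can carry these transcripts were measured beside them. The 10 mural cell markers were all detected in every library and summed to 298 to 310.4 CPM in KI, 297 to 330.3 in KI_WT, 238 to 303 in KO and 299.6 to 348 in KO_WT. Their median log2 fold change was 0.0090 in KI and -0.24 in KO, with Acta2 at 0.42 (SE 0.19) and Myh11 at 0.23 (SE 0.16) in KI and Myh11 at -0.66 (SE 0.16) and Abcc9 at -0.51 (SE 0.17) in KO. In KO mural markers and Cspg4 were thus both on the lower side, and the part of pericytes in the Cspg4 value was not tested. The 8 fibroblast and meningeal markers, none at 0 in any library, summed to 160.4 to 205 CPM in KI, 142 to 183 in KI_WT, 132 to 221 in KO and 116 to 160.4 in KO_WT. Their medians were 0.26 in KI and 0.15 in KO, where Pdgfra was lower, and their part in the Pdgfra values was not tested. Col1a2 (0.43, SE 0.15) and Col1a1 (0.49, SE 0.26) had the smallest p in KI, and Dcn (0.54, SE 0.25) and Lum (0.40, SE 0.24) in KO.

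Glia, vessels and neurons gave the following medians over 8 to 10 markers each, with 0 passing in any. Astrocyte markers were at -0.05 in KI and -0.19 in KO, microglia markers at 0.11 and -0.10, endothelial markers at 0.0088 and -0.18, and cortical neuron markers at -0.14 and -0.06. Thus 8 of 10 astrocyte, 7 of 8 microglial and 8 of 8 endothelial markers shared the lower side with the precursor genes in KO. In KO the smallest p values were those of the glutamate transporter gene Slc1a3 (-0.35, SE 0.13) and Slc4a4 (-0.30, SE 0.12) in astrocytes, and of Csf1r (-0.32, SE 0.080) and Cx3cr1 (-0.36, SE 0.13) in microglia. Flt1 (-0.41, SE 0.11) and Abcb1a (-0.40, SE 0.12) led in endothelium, and Tbr1 (-0.24, SE 0.16) and Syt1 (-0.15, SE 0.10) in neurons. In KI they were Aqp4 (-0.17, SE 0.11) and Fgfr3 (0.17, SE 0.12), Tmem119 (0.19, SE 0.086) and P2ry12 (-0.38, SE 0.18), Slco1a4 (-0.30, SE 0.15) and Abcb1a (-0.17, SE 0.12) and, in neurons, Syt1 (-0.16, SE 0.10). The part of these other cells in the precursor values was not tested.

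Of the regional and Y-linked markers 0 passed as well. The 8 thalamus markers had medians of 0.80 in KI and 0.51 in KO, with the homeobox gene Gbx2 at 2.94 (SE 0.66) and Tnnt1 at 1.71 (SE 0.52) in KI and Slc17a6 at 0.86 (SE 0.20) and Gbx2 at 2.13 (SE 0.63) in KO. At an unadjusted edgeR p under 0.05, 6 of the 8 were higher in KI and 2 in KO, against 3.04% and 3.43% of tested genes. Their mean log2 CPM relative to the mean of 12 libraries was 0.373 to 0.886 in KI and -0.716 to -0.312 in KI_WT, without overlap. Choroid plexus markers were at 0.36 and 1.02, with Clic6 (0.58, SE 0.54) and Kl (0.55, SE 0.87) in KI and Otx2 (1.15, SE 0.73) and Clic6 (0.74, SE 0.55) in KO. Olfactory bulb and neuroblast markers were at -1.35 and -0.14, with Dcx (-0.61, SE 0.40) and Nmb (-1.22, SE 0.94) in KI and Dcx (-0.35, SE 0.40) and Sox11 (0.11, SE 0.19) in KO. The 4 Y-linked genes had medians of -1.31 and -1.62, with Uty (-1.37, SE 1.79) and Eif2s3y (-1.42, SE 1.88) in KI and Uty (-1.66, SE 1.79) and Kdm5d (-1.57, SE 1.81) in KO. With terms for regional markers in the model 0 of the 7 precursor genes passed in either line. Because 0 passed without the terms, this count cannot show what part the regions have. With them Vcan went from -0.22 to -0.40, Cspg4 from 0.34 to 0.22 and Pdgfra from 0.23 to 0.30 in KI. In KO Pdgfra went from -0.41 to -0.30 and Vcan from -0.40 to -0.47, and Gpr17 stayed at -0.46. The part of the regions in the precursor values was not tested.

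Ratios of the genes within a library do not depend on how libraries are scaled. The ratio of Gpr17 to Vcan in RPKM was 6.77, 5.86 and 6.67 in KI and 4.65, 4.71 and 3.91 in KI_WT, without overlap. In KO it was 6.30, 4.38 and 5.48 and in KO_WT 5.81, 5.67 and 5.23, which overlapped. The KI_WT libraries were also below all KO_WT libraries in this ratio. The ratio of Vcan to Pdgfra was 0.135, 0.157 and 0.161 in KI, below the 0.199, 0.175 and 0.250 of KI_WT. Olig1 over Olig2 (3.90 to 5.51), Gpr17 over Pdgfra (0.824 to 1.1001), Cspg4 over Pdgfra (0.105 to 0.169) and Sox10 over Olig2 (0.988 to 1.51) overlapped between the groups of each line. Of 6 ratios computed, the 2 that did not overlap in the knock-in line both contain Vcan. Vcan alone was already lower in KI without overlap, so these ratios partly restate its values. No share over other pairs of genes was computed.

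Across the 12 libraries the genes went together to different degrees. Pearson's r of log2 CPM was above 0 for all 21 pairs (0.0568 to 0.899, median 0.533), and for 19 pairs when deviations from the group means were used (-0.159 to 0.852, median 0.412). The closest pair was Gpr17 and Pdgfra (r = 0.899, and 0.852 for deviations), where Pdgfra ranked 10 among 17440 genes by likeness to Gpr17. Olig2 and Sox10 (0.777) and the nearby genes Olig1 and Olig2 (0.757) followed Cspg4 and Olig1 (0.816). Vcan and Sox10 had the lowest value (0.0568). The points share library composition and group, so these values are descriptions.

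**Figure D4:**
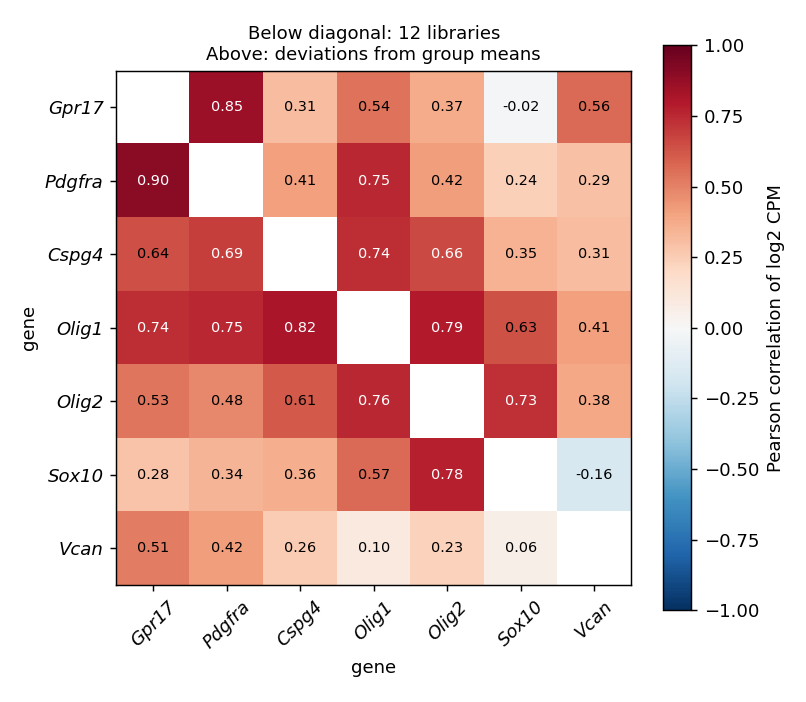
Pearson correlation of log2 CPM between the 7 genes, over the 12 libraries below the diagonal and for deviations from group means above it (colour scale from -1 to 1). Gpr17 and Pdgfra are closest in both (0.899 and 0.852), and Vcan and Sox10 are the least alike over the 12 libraries (0.0568).

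The genes most like each of the 7 over the 12 libraries were mostly not precursor markers. Nearest to Pdgfra were Smarca2 (r = 0.954), Aldh7a1 (0.946) and Tef (0.942), and nearest to Cspg4 were Ptpru (0.926), Sh3gl1 (0.925) and Tgfbr2 (0.912). Tns3, a tensin found in newly formed oligodendrocytes, was nearest to Gpr17 (0.943), before Zcchc24 and Btbd16 (0.937 each). Hip1 (0.937), Spire1 (0.930) and Suv420h1 (0.916) were nearest to Vcan. Uhrf1 (0.935), F11r (0.933) and Sema4f (0.921) were nearest to Olig1, and Rnf112 (0.944), Slc17a5 (0.937) and Galnt9 (0.925) to Olig2. Nearest to Sox10 were Trf, the transferrin gene abundant in mature oligodendrocytes (0.865), Ccl28 and Padi2 (0.830 each). With 17440 candidates and 12 libraries high values occur for many genes, and nothing is read from single names.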

How the data were processed

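Poly(A) RNA of 12 cortices was measured. Per the submitters' processing notes bcl2fastq 2.17, STAR 2.5.0c, Cufflinks 2.2.1 and GRCm38 were used; the sources used here name no read counter, annotation or strand mode. The authors deposited raw counts per Ensembl gene and, for the same genes and libraries, RPKM values. Dividing counts by RPKM and depth gave 1 length per gene, with a tolerance of 0.0488%, for the 8292 genes of 500 counts and 1 RPKM or more in each library. Replicates were 13.1 to 71.2 times as variable as sampling alone, so none was a copy.

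Counts were fitted with edgeR 4.0.16 in R 4.3.3: filterByExpr (17441 of 41388 genes), TMM scaling, quasi-likelihood models with 1 mean per group over all 12 libraries (8 residual degrees of freedom), and Benjamini-Hochberg adjustment over all tested genes at 0.05. The fit was tested on simulated data with 200 of 17441 genes changed in 1 group. Of genes changed 1.5-fold, 23.5% passed for KI against KI_WT, 31.5% for KO against KO_WT and 0% for the difference of effects. Of genes changed 2-fold, 65%, 64.5% and 46% passed. A gene that did not pass can thus still have changed by such an amount. The simulated counts were drawn for each gene on its own, with 200 genes changed and without differences in composition that many genes share. The shares that would pass in the real data can therefore be lower. CPM uses TMM-scaled totals; log2 CPM has a prior count of 2. "Did not overlap" means that all libraries of one group lay above all of the other; an exact permutation test of 3 against 3 cannot go below p = 0.1 and was not used. Alternatives were RLE scaling, other count filters, DESeq2 1.42.0, limma 3.58.1 (voom with quality weights, or log2(RPKM + 0.1) and log2(RPKM + 1) for genes above 0.5 RPKM in 3 libraries), the compared groups alone, each library left out, and terms for animal number range, Y-linked expression or regional markers. Ratios within sets of libraries were added after the data were seen. Gene coordinates are from GENCODE on GRCm38. From each list the 2 genes with the smallest p in KI and KO, and for each of the 7 genes the 3 most correlated genes, were named by rule; 1 gene so named is not reported here. The members and lists were chosen with earlier results of these data known.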

Additional observations from a re-analysis of the deposited data

How the results depend on the processing

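By each test tried, DESeq2 and limma voom included, 0 of the 7 genes passed in any comparison under any alternative. All 5 medians over the 7 genes kept their sign under every alternative. With log2(RPKM + 1), which compresses low values, the median was -0.15 for KO against KO_WT and 0.38 for the difference of effects. Leaving out single libraries gave 0.10 to 0.39 for KI against KI_WT (without KI_WT 3 and KI_WT 1) and -0.35 to -0.15 for KI_WT against KO_WT (without KI_WT 1 and KI_WT 3). Of 630 values of single genes under alternatives 11 turned sign, all of Sox10, Olig2 or Vcan where the reported value was -0.13 to 0.04. Left-out libraries gave Olig2 -0.22 to 0.024 in KO against KO_WT. In KI against KO they gave Olig2 -0.10 to 0.13, Vcan -0.056 to 0.19 and Sox10 -0.045 to 0.052. In KI against KO Sox10 was also 0.0021 without a count filter, 0.0078 and 0.0071 with log2(RPKM + 0.1) and log2(RPKM + 1), and 0.0040 with regional terms, and Olig2 was -0.040 with the animal number term. The cause was not tested. No paired analysis was possible because the labels give no replicate numbers shared by the groups. Depth was lowest for Cspg4, with 295 to 552 counts per library.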
